A study of Mus musculus with 20 samples.

Results

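The genes described here are 10 markers by which tissue macrophages are recognised, measured in the visceral fat of F3 mice. They are Adgre1, Cd68, Csf1r and Lyz2, which are carried by macrophages in general, and Mrc1, Cd163, Lyve1, Timd4, Folr2 and F13a1, which are used to mark macrophages that live in a tissue. They were chosen by name, as every non-control probe whose gene name in the array files is one of the 10. The 10 genes are among 37074 gene names on the array and are read by 18 of its 56605 probes. All 10 genes and all 18 probes passed the filter on low signals, and 17 of the 18 exceeded the background clearly in every mouse.

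Macrophages of adipose tissue come from embryonic precursors that renew themselves in place and from blood monocytes that enter the tissue and mature there. Their survival depends on the receptor encoded by Csf1r, and the resident cells take up debris, lipid and haemoglobin through surface receptors such as the mannose receptor and CD163. In obesity the number of macrophages in visceral fat is known to grow, mainly by recruitment and local division, and the added cells gather around dying adipocytes. Identity genes therefore fall into those that all macrophages carry and those that the resident cells carry more than the recruited ones.

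The study asked whether EPA, an omega 3 fatty acid, given over 3 generations changes how visceral adipose tissue adapts to an obesogenic diet. All mice were male C57bl/6J mice of the F3 generation, and the tissue was the epididymal fat of 1 mouse per array. The Ref group (6 mice) and the HFoleic group (6 mice) came from a control lineage whose growing diet was supplemented with high-oleic sunflower oil, and the HFepa group (8 mice) came from an omega 3 lineage whose growing diet was supplemented with EPA-rich fish oil. For several months before sampling the HFoleic and HFepa groups received a high-fat, high-sucrose diet and the Ref group a low-fat diet. HFoleic vs. Ref thus compared diets within 1 lineage, HFepa vs. HFoleic compared lineages on 1 diet, and HFepa vs. Ref differed in both. The tissue was bulk fat, so that fewer macrophages and less RNA per macrophage cannot be told apart.

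The arrays were spread over 3 slides, each with mice of every group, and the labels give 1 wash batch for all of them. The share of spots well above background was 66.06% to 71.88% per array, without any saturation. The 9 adipocyte markers tested, such as Adipoq and Plin1, were well above background on all 20 arrays. Of 9 markers of epididymis and testis, which lie against this fat pad, 4 passed the filter, and their summed log2 intensity ranged from 7.85 to 11.70 in the Ref, from 7.71 to 12.09 in the HFoleic and from 7.65 to 10.64 in the HFepa group. Their part in the results was not tested.

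Values are log2 intensities, normalized so that all arrays share 1 distribution, and a log2 fold change is the difference between the means of the compared groups on that scale. A gene was called when its adjusted p was below 0.05 in the moderated test of limma, with Benjamini–Hochberg adjustment over all 39390 probes tested. Each gene is described by its brightest probe, and other probes are named where they differ. Intensities of different probes are not comparable as amounts of mRNA, so that levels were compared between mice and not between genes.

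In HFoleic vs. Ref, 6 of the 10 genes were higher (15.2% of all probes tested were called higher) and 1 was lower (15.6% of all probes were called lower). These 7 of 10 genes stand beside 30.8% of all probes called in either direction. Adgre1, Cd68, Lyz2 and Csf1r, the general markers, were 2.02-fold to 5.30-fold higher, and Folr2 and Mrc1 were 1.89-fold and 1.69-fold higher. Cd163 was lower, and Lyve1, Timd4 and F13a1 were not called. The same 6 genes had groups that did not overlap, with every HFoleic mouse above every Ref mouse (6.77% of all probes), and no gene had the reverse (6.41%). The median log2 fold change of the 10 genes was 0.84, and that of all probes tested was -0.03.

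**Figure D1:**
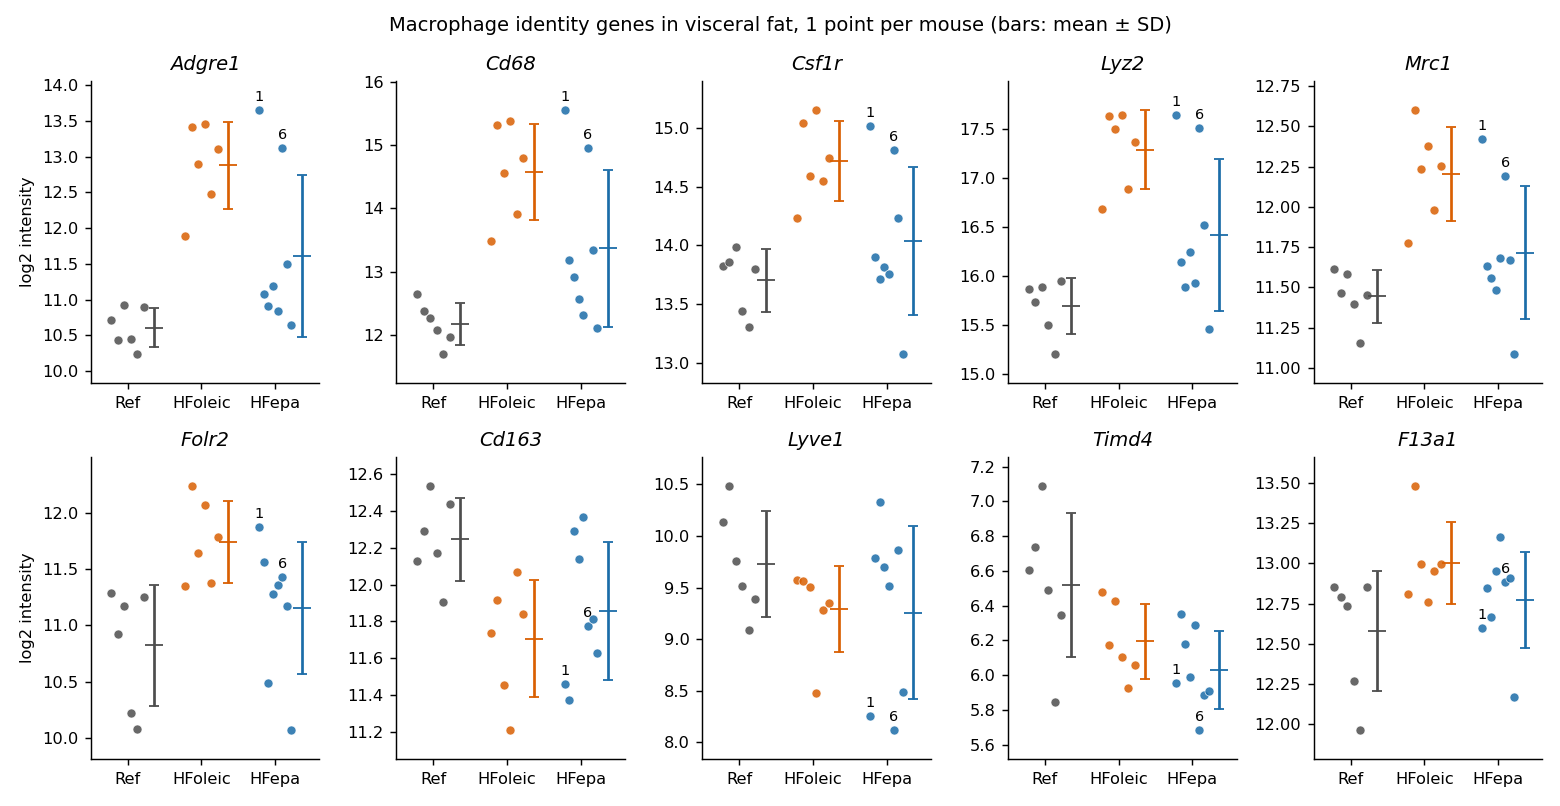
Log2 intensity (y axes) of the 10 genes in each mouse of the Ref, HFoleic and HFepa groups (x axes); each point is 1 mouse, and the bars at the side give the mean and SD of the group. The HFoleic mice lie above all Ref mice for the first 6 genes, and HFepa mice 1 and 6, which are numbered, are the highest of their group for Adgre1, Cd68, Csf1r, Lyz2 and Mrc1.

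Adgre1 encodes F4/80, the adhesion receptor most used to stain mouse macrophages. Its log2 intensity had a lowest, median and highest value of 10.24, 10.58 and 10.92 in the Ref mice. In the HFoleic mice these values were 11.90, 13.01 and 13.47, and in the HFepa mice they were 10.64, 11.13 and 13.65. The HFoleic mice were all above the Ref mice, whereas the HFepa mice reached from within the range of the Ref group to above that of the HFoleic group. The log2 fold change in HFoleic vs. Ref was 2.27 ± 0.43 (SE), or 4.83-fold, with an adjusted p of 0.0011 from limma. The dimmer probe of Adgre1 was well above background in 1 of 6 Ref mice and in all 6 HFoleic mice. Its log2 fold change in HFoleic vs. Ref was smaller, 0.75, and it was also called. This probe passed the filter on low signals only by way of the HFoleic mice, in which it was high. Its call is therefore no further support for that of the brighter probe.

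Cd68 encodes macrosialin, a glycoprotein of lysosomal membranes in phagocytes. Its lowest, median and highest log2 intensities were 11.70, 12.17 and 12.65 in the Ref, 13.49, 14.68 and 15.38 in the HFoleic and 12.11, 13.05 and 15.55 in the HFepa group. The HFoleic range again lay wholly above the Ref range. Cd68 had the largest log2 fold change of the 10 genes in HFoleic vs. Ref, 2.41 ± 0.49 (SE), and its other 2 probes gave 2.75 and 2.73, all 3 of them called. The 95% interval of that of Cd68, from 1.38 to 3.43, covers the value of Adgre1.

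Csf1r encodes the receptor for CSF1 and IL-34, the signals on which macrophages depend. Across mice, the lowest, median and highest log2 intensities were 13.30, 13.81 and 13.99 in the Ref, 14.24, 14.67 and 15.15 in the HFoleic and 13.07, 13.86 and 15.02 in the HFepa group. All HFoleic mice exceeded all Ref mice, by less than for Adgre1. The log2 fold change was 1.02 ± 0.25 (SE), with an adjusted p of 0.00511 from limma. A much dimmer probe nearer the start of Csf1r gave 0.20 (95% interval -0.04 to 0.43) and was not called, so that the 2 probes of this gene did not give the same call.

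Lyz2 encodes lysozyme of myeloid cells, and neutrophils and monocytes carry it as well. Its lowest, median and highest log2 intensities were 15.20, 15.80 and 15.95 in the Ref, 16.69, 17.44 and 17.65 in the HFoleic and 15.46, 16.19 and 17.65 in the HFepa group. The Ref and HFoleic groups were apart here too, with a log2 fold change of 1.60 ± 0.31 (SE) and an adjusted p of 0.00108 from limma. The second probe of Lyz2, at chr10:116719175-116719234 on the minus strand of mm9, gave a log2 fold change of 2.31. Its sequence is shown because the mouse genome holds a close relative, Lyz1, and binding of Lyz1 transcripts to these probes was not tested.
Lyz2 probe: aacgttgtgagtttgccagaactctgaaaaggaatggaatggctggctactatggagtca

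Of 9 neutrophil markers tested beside Lyz2, S100a8 was higher in HFoleic vs. Ref (log2 fold change 2.46; 15.2% of all probes were called higher). Csf3r was lower by a log2 fold change of -0.24 (15.6% of all probes were called lower), while S100a9 (-0.44), Ly6g (-0.22) and 5 others were not called. Their summed log2 intensity was 15.99 to 16.26 in the Ref, 15.79 to 16.06 in the HFoleic and 15.64 to 16.08 in the HFepa group, and Cxcr2 and Ngp were too dim to be tested. That sum rests mostly on Csf3r, the brightest probe of the list with a mean of 15.90, and the part of neutrophils in the level of Lyz2 was not tested. Retnlg and Ltf, which mark mature and maturing neutrophils, were well above background on 8 and 11 of the 20 arrays.

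The genes of resident macrophages did not move as 1 block. Mrc1 encodes the mannose receptor CD206, which binds sugars of glycoproteins. Its lowest, median and highest log2 intensities were 11.15, 11.46 and 11.61 in the Ref, 11.77, 12.24 and 12.60 in the HFoleic and 11.09, 11.65 and 12.42 in the HFepa group. The log2 fold change in HFoleic vs. Ref was 0.76 ± 0.18 (SE), with an adjusted p of 0.00335 from limma and no overlap between the groups.

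Folr2 encodes folate receptor beta, a surface receptor of macrophages. In the order lowest, median and highest, its log2 intensities were 10.08, 11.04 and 11.29 in the Ref, 11.35, 11.71 and 12.24 in the HFoleic and 10.07, 11.31 and 11.88 in the HFepa group. The highest Ref mouse and the lowest HFoleic mouse were close together, yet the groups did not overlap, and the log2 fold change was 0.92 ± 0.28 (SE; adjusted p = 0.0165 from limma). A single probe reads Folr2, at chr7:108988771-108988830 on the minus strand of mm9, and it is shown because the call rests on it alone.
Folr2 probe: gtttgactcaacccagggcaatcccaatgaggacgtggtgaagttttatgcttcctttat

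Cd163, the scavenger receptor for haemoglobin bound to haptoglobin, went the other way. Its lowest, median and highest log2 intensities were 11.91, 12.23 and 12.53 in the Ref, 11.21, 11.79 and 12.07 in the HFoleic and 11.37, 11.80 and 12.37 in the HFepa group. The ranges overlapped, and the log2 fold change in HFoleic vs. Ref was -0.54 ± 0.17 (SE), with an adjusted p of 0.0239 from limma. This call was lost without Ref mouse 4 (adjusted p = 0.0571), without HFoleic mouse 5 (0.0548) and without HFoleic mouse 6 (0.0668), all from limma. The dimmer probe of Cd163, at chr6:124270436-124270495 on the plus strand of mm9, gave -0.15 (95% interval -0.45 to 0.16), and the mean of both probes gave -0.34 (adjusted p = 0.0977 from limma). The probe that was not called is shown.
Cd163 probe: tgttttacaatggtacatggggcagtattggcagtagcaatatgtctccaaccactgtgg

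Lyve1 encodes a hyaluronan receptor of macrophages along vessels and of lymphatic endothelium. Log2 intensities, given as lowest, median and highest, were 9.09, 9.63 and 10.49 in the Ref, 8.48, 9.43 and 9.57 in the HFoleic and 8.12, 9.61 and 10.33 in the HFepa group. The groups overlapped widely and the gene was not called, with a log2 fold change in HFoleic vs. Ref of -0.43 (95% interval -1.16 to 0.29). Within slides that difference was -1.18, 0.11 and -0.02 on slides 1, 2 and 3.

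Timd4 encodes TIM4, a receptor for phosphatidylserine on dying cells that marks long-lived resident macrophages. Its probe was dim, with lowest, median and highest log2 intensities of 5.84, 6.55 and 7.09 in the Ref, 5.93, 6.14 and 6.48 in the HFoleic and 5.69, 5.97 and 6.35 in the HFepa group. The highest values of Timd4 were those of Ref mice, while 1 Ref mouse lay at 5.84, below every HFoleic mouse. The log2 fold change in HFoleic vs. Ref was -0.32 (95% interval -0.66 to 0.01; adjusted p = 0.133 from limma), and without Ref mouse 6, the lowest of its group, it was -0.46 (adjusted p = 0.0194 from limma).

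F13a1 encodes the A subunit of coagulation factor XIII, which macrophages and platelets contain. The lowest, median and highest values were 11.97, 12.76 and 12.85 in the Ref, 12.76, 12.97 and 13.48 in the HFoleic and 12.17, 12.86 and 13.16 in the HFepa group. The groups overlapped, and the log2 fold change in HFoleic vs. Ref was 0.42 (95% interval 0.07 to 0.77; adjusted p = 0.0658 from limma). It was called without Ref mouse 7 (0.48, adjusted p = 0.0479 from limma) and without HFepa mouse 8 (adjusted p = 0.0412), which lies outside the compared groups but shares in the estimate of the spread. The other probes of F13a1 gave 0.07 and 0.30 and were not called. Of 5 platelet markers tested, Gp9 (log2 fold change -0.99) and Ppbp (-0.99) were lower in HFoleic vs. Ref and none was higher, beside 15.6% and 15.2% of all probes.

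**Figure D2:**
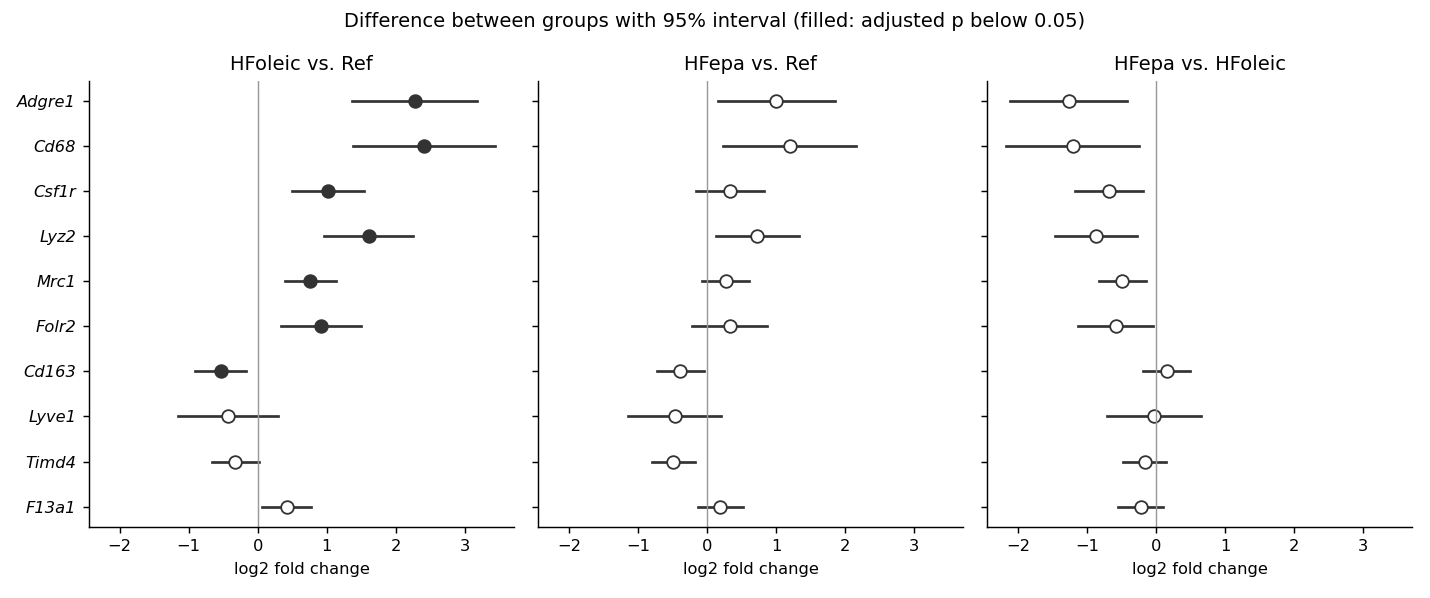
Log2 fold change (x axes) of the 10 genes (y axis) in the 3 comparisons between the Ref, HFoleic and HFepa groups; circles give the estimate of limma, lines its 95% interval, and filled circles an adjusted p below 0.05. Filled circles are found in HFoleic vs. Ref only, where 6 genes lie to the right of 0 and Cd163 to the left.

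In HFepa vs. Ref, limma called none of the 10 genes (2.26% of all probes tested were called, 0.96% higher and 1.3% lower), while 3 were higher and 2 lower at an unadjusted p below 0.05 (9.72% and 11% of all probes). The 3 higher were Cd68 with a log2 fold change of 1.20 (95% interval 0.24 to 2.16), Adgre1 with 1.01 (0.16 to 1.85) and Lyz2 with 0.73 (0.13 to 1.33). The 2 lower were Timd4 with -0.49 (-0.80 to -0.18) and Cd163 with -0.39 (-0.73 to -0.05). Timd4 had the smallest adjusted p, 0.0807 from limma, and it was 0.0465 without Ref mouse 6. None of the 10 genes had groups without overlap in this comparison (0.327% of all probes were apart and higher, 0.607% apart and lower). The intervals of Csf1r (-0.15 to 0.83), Mrc1 (-0.07 to 0.61) and Folr2 (-0.21 to 0.87) include 0 as well as differences about as large as some of those called in HFoleic vs. Ref.

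In HFepa vs. HFoleic, again none of the 10 genes was called (0.00254% of all probes, 1 probe in all) and none had groups without overlap (0.162% of all probes were apart and higher, 0.272% apart and lower), and 6 were lower and 0 higher at an unadjusted p below 0.05 (10.2% and 10.3% of all probes). These were Adgre1 with a log2 fold change of -1.27 (95% interval -2.11 to -0.42), Cd68 with -1.21 (-2.17 to -0.25), Lyz2 with -0.87 (-1.47 to -0.28), Csf1r with -0.68 (-1.17 to -0.19), Folr2 with -0.59 (-1.13 to -0.05) and Mrc1 with -0.49 (-0.83 to -0.14). They are the 6 genes that were higher in HFoleic vs. Ref, and both comparisons share the HFoleic mice. The adjusted p of the 10 genes ran from 0.131 to 0.969 in limma. Cd163 (0.15), Lyve1 (-0.03), Timd4 (-0.16) and F13a1 (-0.23) had intervals that include 0.

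The order of the group means was HFoleic, HFepa, Ref from high to low for 7 of the 10 genes, namely the 6 that were higher in HFoleic vs. Ref and F13a1. It was Ref, HFepa, HFoleic for Cd163 and Ref, HFoleic, HFepa for Lyve1 and Timd4. HFoleic and Ref differed in the test for 7 genes, whereas HFepa did not differ in the test from HFoleic or from Ref for any gene.

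The HFepa mice were spread widely, and 2 of them stood apart. For Adgre1 the SD was 1.13 in the HFepa mice, 0.60 in the HFoleic mice and 0.28 in the Ref mice. HFepa mouse 1 had a log2 intensity of 13.65 and HFepa mouse 6 one of 13.12, and the other 6 HFepa mice lay between 10.64 and 11.49, below the lowest HFoleic mouse at 11.90. Mice 1 and 6 were also the highest 2 of the HFepa group for Cd68 (15.55 and 14.96), Csf1r (15.02 and 14.81), Lyz2 (17.65 and 17.52) and Mrc1 (12.42 and 12.19). For these 5 genes the pair lay within or above the range of the HFoleic group. For Lyve1 they were the lowest 2 (8.26 and 8.12), and for F13a1 they took the middle and lower ranks (12.60 and 12.88). Counted from the highest of 8, mice 1 and 6 ranked 7 and 5 for Cd163, 5 and 8 for Timd4 and 1 and 3 for Folr2.

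The 2 mice were hybridized on different slides. Without HFepa mouse 1, 5 genes were called lower in HFepa vs. HFoleic (7.28% of all probes were then called in this comparison). These were Adgre1 (log2 fold change -1.56, adjusted p = 0.0271), Lyz2 (-1.05, 0.0278), Mrc1 (-0.59, 0.0284), Cd68 (-1.52, 0.0299) and Csf1r (-0.82, 0.0313), all from limma. Leaving out any other array called 0 of the 10 genes in HFepa vs. HFoleic, although 4.22% of all probes were called without HFoleic mouse 1. With slide as a block 3.29% of all probes and again 0 of the 10 genes were called. The 2 mice were not left out together, since that would select mice by the outcome.

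Within slides the 6 genes kept their direction in HFoleic vs. Ref and in HFepa vs. HFoleic. In HFoleic vs. Ref the log2 fold change of Adgre1 was 2.25, 2.75 and 2.11 within slides 1, 2 and 3, and that of Mrc1 was 0.59, 1.17 and 0.74. Within each of the 3 slides all 6 genes were higher in HFoleic than in Ref and Cd163 was lower (-0.61, -0.39 and -0.46). In HFepa vs. HFoleic the 6 genes were lower within each slide, and Adgre1 had -1.12, -1.63 and -1.49. In HFepa vs. Ref, Folr2 had -0.0049, 0.68 and 0.21 on slides 1, 2 and 3, so that its direction turned on slide 1. Slide 2 holds 1 HFoleic mouse, so that its values rest on that mouse.

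To ask whether the genes changed by the same amount in the same mice, the log2 intensity of Adgre1 was subtracted from that of each other gene, mouse by mouse. In HFoleic vs. Ref this difference was lower for 7 of the other 9 genes, and it was lower for 98.7% and higher for 0.0559% of all probes tested. Relative to Adgre1, Cd163 was lower by a log2 difference of -2.81 (95% interval -3.80 to -1.82), Lyve1 by -2.71 (-3.76 to -1.65) and Timd4 by -2.60 (-3.58 to -1.61). The differences were -1.85 for F13a1, -1.51 for Mrc1, -1.35 for Folr2 and -1.25 for Csf1r. The dimmer probe of Adgre1 itself had -1.52 (95% interval -2.46 to -0.58). Differences as large as those of Mrc1, Folr2 and Csf1r thus also arose between probes of the same gene, while those of Cd163, Lyve1, Timd4 and F13a1 were larger. That dimmer probe was well above background in 1 of 6 Ref mice, which limits it as a measure for brighter probes. Cd68 moved by about as much as Adgre1 (0.13, 95% interval -0.79 to 1.06). Lyz2 had -0.67 (-1.59 to 0.26) and was not called, although its HFoleic mice (4.18 to 4.79) lay below its Ref mice (4.96 to 5.30) on this scale. The second probe of Lyz2 had 0.04 (-0.88 to 0.96), and its groups overlapped.

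In HFepa vs. Ref, 0 of the 9 differences from Adgre1 were called in limma and 3 were lower at an unadjusted p below 0.05 (0.0228% of all probes were called lower, and 74.9% were lower at the unadjusted p). In HFepa vs. HFoleic the difference was higher for Cd163 (1.42), Lyve1 (1.23), F13a1 (1.04) and Timd4 (95% interval 0.18 to 2.03), as it was for 94.9% of all probes, and it was lower for 0.0203% of them. These shares show that the differences from Adgre1 mostly carry the change of Adgre1 itself, and nothing particular to the genes is read from their calls.

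**Figure D3:**
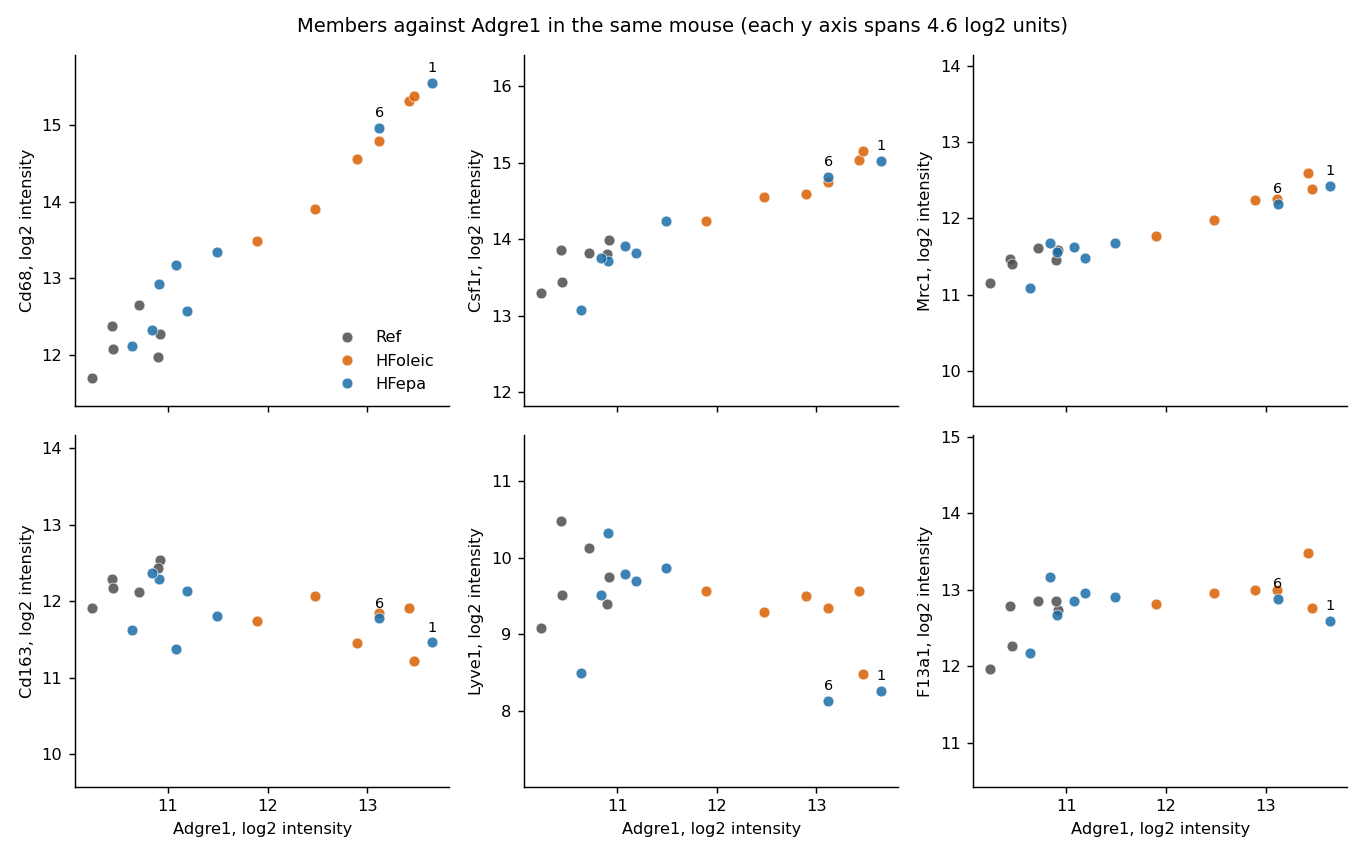
Log2 intensity of Cd68, Csf1r, Mrc1, Cd163, Lyve1 and F13a1 (y axes, each of the same length) against that of Adgre1 (x axes) in the same mouse; points are the mice of the Ref, HFoleic and HFepa groups, with HFepa mice 1 and 6 numbered. Cd68 rises most steeply with Adgre1 and Csf1r and Mrc1 less so, Cd163 and Lyve1 do not rise, and HFepa mice 1 and 6 lie within or above the range of the HFoleic mice for Cd68, Csf1r and Mrc1 and are the lowest 2 of all 20 mice for Lyve1.

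The members also differed in how they varied between mice of 1 group. Deviations from the group means over the 20 mice gave a Pearson r of 0.92 to 0.97 for the 10 pairs among Adgre1, Cd68, Csf1r, Lyz2 and Mrc1 (Spearman rho 0.87 to 0.96). Without the 2 mice farthest from the median the r of these pairs was 0.85 to 0.94. Mrc1 thus followed the general markers from mouse to mouse. Folr2 followed these 5 genes with r of 0.65 to 0.80 and F13a1 with r of 0.18 to 0.45.

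Cd163, Lyve1 and Timd4 did not follow the general markers. The 15 pairs between these 3 genes and the 5 had r of -0.56 to 0.01, and of -0.42 to 0.12 without the 2 mice farthest from the median. Among themselves Cd163, Lyve1 and Timd4 had r of 0.22 to 0.54. All of these correlations are descriptions over 20 mice whose genes share an array.

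The genes whose deviations were most like those of each member were sought among 25592 other genes. For Adgre1, Slc37a2 (r = 0.99), a sugar-phosphate exchanger, was among them. For Cd68 they were Tyrobp (0.99), a signalling adaptor of myeloid receptors, and Slc11a1 (0.99), a metal transporter of phagosomes. Csf1r and Lyz2 shared Fcgr3, an Fc receptor, and H2-Aa, an MHC class II chain, with r of 0.96 to 0.98. The closest genes of Mrc1 were Gmfg (0.98) and Tnfaip8l2 (0.97), and those of Folr2 were Rab31 (0.89) and Tnfsf13b (0.88).

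The closest genes of the remaining members had r of at most 0.90. Lyve1 was closest to Nov (0.90), a matricellular protein, and Nts (0.89), the precursor of neurotensin. F13a1 was closest to Mfap5 (0.87), a microfibril protein, and Loxl2 (0.86), an enzyme that crosslinks collagen. Cd163 had Zg16 (0.78) and Timd4 had Tph1 (0.80) among their closest 2. Such values are the highest of 25592 correlations over 20 mice, and how high chance alone would reach was not tested.

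Since Lyve1 and F13a1 are carried by other cells too, they were set beside marker lists of those cells. The deviations of Lyve1 had an r of 0.83 (rho 0.81) with those of the summed intensity of 6 lymphatic endothelium markers, among them Prox1, Mmrn1 and Ccl21a. With the summed intensity of 20 general macrophage markers the r of Lyve1 was -0.49 (rho -0.36). Such a sum rests most on the brightest probes of its list and does not stand for each marker. The summed log2 intensity of the lymphatic list ran from 12.07 to 13.98 in the Ref, from 11.99 to 13.55 in the HFoleic and from 11.70 to 14.63 in the HFepa group, and 4 of its 6 genes were well above background on all 20 arrays. None of the 6 genes was called in any comparison, and none had an unadjusted p below 0.05. Lyve1 thus varied with the summed intensity of the lymphatic endothelium list more closely than with that of the general macrophage list. It was not set beside a list of resident macrophage genes. With single resident members its r was 0.54 (Timd4), 0.48 (Cd163), 0.47 (F13a1), -0.02 (Folr2) and -0.28 (Mrc1). The part of lymphatic vessels in the level of Lyve1 was not tested.

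F13a1 had an r of 0.71 (rho 0.61) with the summed intensity of 8 markers of adipose stem cells and fibroblasts. With the summed intensity of the platelet list its r was 0.25 (rho 0.10). Its r was as high with Folr2 (0.72, rho 0.64), and it was 0.41 to 0.51 with Cd163, Lyve1 and Timd4. Of those 8 markers Col1a1 (log2 fold change 1.49), Lum (1.57), Col3a1 (1.37) and Thy1 (0.62) were higher in HFoleic vs. Ref, beside 15.2% of all probes. The summed log2 intensity of that list was 17.02 to 17.39 in the Ref, 17.31 to 17.84 in the HFoleic and 16.71 to 17.44 in the HFepa group. The part of these cells in the level of F13a1 was not tested.

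Other macrophage genes were read beside the members. Of 20 further general macrophage markers 16 were higher in HFoleic vs. Ref and 0 lower, beside 15.2% and 15.6% of all probes. Their median log2 fold change was 1.19 where that of all genes tested was -0.04. Ctss, a lysosomal protease, had 3.03 and Mpeg1, a pore-forming protein of phagosomes, had 2.36. Itgam (0.30), Ptprc (0.19), Cd14 (-0.29) and Mertk (-0.09) were not called. The summed log2 intensity of this list was 15.13 to 15.64 in the Ref, 16.35 to 17.86 in the HFoleic and 15.40 to 17.98 in the HFepa group.

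Of 19 further genes of resident macrophages that were tested, 5 were higher in HFoleic vs. Ref and 0 lower, with a median log2 fold change of 0.13. The 5 were Marco (1.11), a scavenger receptor, Clec10a (0.59), a lectin, Wfdc17 (0.85), the chemokine Ccl8 (1.39) and Retnla (0.61), a secreted product of alternatively activated macrophages. Vsig4 (0.38), Stab1 (0.13), Cbr2 (0.07) and the Cd209 genes b, d, f and g (-0.04 to 0.34) were among the 14 that were not called. Of all probes tested 15.2% were called higher and 15.6% lower (30.8% in either direction), and Il10 was too dim to be tested.

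Lipid-associated and recruited macrophages carry Trem2, Gpnmb, Itgax and related genes. Of 12 such genes 10 were higher in HFoleic vs. Ref (15.2% of all probes were called higher), with a median log2 fold change of 2.63. Trem2, a lipid receptor, had 4.22 and Gpnmb, a lysosomal glycoprotein, had 4.89, both above the 2.41 of Cd68. Fabp5, a fatty acid binding protein, was called in HFepa vs. Ref as well (0.75).

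Of 10 monocyte genes tested, Ccr2, the receptor for CCL2 (1.40), F10 (2.81) and Chil3 (1.51) were higher in HFoleic vs. Ref and Nr4a1 (-1.11) was lower, while Ly6c2 (-0.20) and Plac8 (0.01) were among those not called. Of 8 dendritic cell genes Flt3 (1.00), Clec9a (0.78), Batf3 (1.05) and Ccr7 (0.84) were higher and Zbtb46 (-0.65) was lower. In the T and B cell, blood endothelium and mesothelium lists no gene was called in HFoleic vs. Ref, with 0, 0 and 0 higher and 1, 0 and 1 lower at an unadjusted p below 0.05 in limma (19.6% and 21.7% of all probes). Of 9 adipocyte genes Lep (1.13) was higher, and Lipe (-1.19), Retn (-0.65), Cfd (-0.50) and Pnpla2 (-0.42) were lower. The monocyte, dendritic cell and adipocyte genes stand beside 15.2% of all probes called higher and 15.6% called lower (30.8% in either direction).

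The colony-stimulating factors control the survival and growth of myeloid cells. The ligands of the receptor encoded by Csf1r, Csf1 (-0.04) and Il34 (-0.41), were not called in HFoleic vs. Ref, whereas Csf2ra (1.42) and Csf2rb (0.52), which encode the receptor of GM-CSF, were higher. Csf2 and Csf3 were too dim to be tested. Csf1r itself was higher in the same mice.

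Of 16 transcription factors of macrophages 6 were higher and 2 lower in HFoleic vs. Ref, beside 15.2% and 15.6% of all probes. Irf8 (1.26), Runx1 (1.07), Irf5 (1.47) and Zeb2 (0.31) were among the higher, and so was Spi1 (1.01), which encodes PU.1 and was well above background on 9 of 20 arrays. Gata6 (-1.04), the factor of peritoneal resident macrophages, and Klf4 (-0.89) were lower. Maf (0.00), Id3 (-0.22), Cebpa (-0.32) and Cebpb (0.18) were not called.

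**Figure D4:**
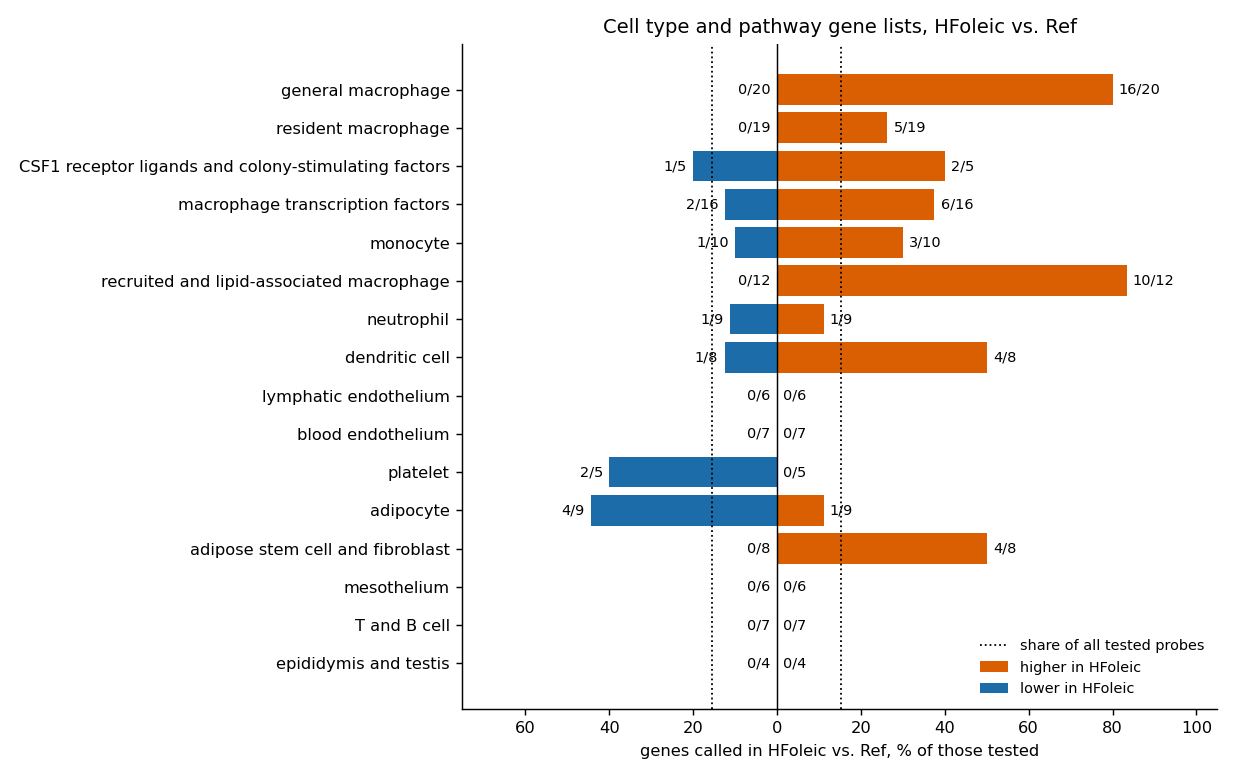
Share of the tested genes of 16 lists (y axis) that were called higher (right of 0) or lower (left of 0) in HFoleic vs. Ref (x axis, %); the numbers beside the bars give the genes called of those tested, and dotted lines mark the shares over all probes, 15.2% higher and 15.6% lower. The general macrophage list (16 of 20 higher) and the recruited and lipid-associated list (10 of 12 higher) reach farthest to the right.

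In HFepa vs. HFoleic none of the 150 genes of the 16 lists was called in limma, and 44 were lower and 11 higher at an unadjusted p below 0.05, beside 10.2% and 10.3% of all probes. Of these 44, 14 were of the 20 general macrophage genes, 9 of the 12 recruited and lipid-associated genes and 1 of the 19 resident genes. Another 5 were of the 8 genes of adipose stem cells and fibroblasts, 5 of the 16 transcription factors and 4 of the 10 monocyte genes. In HFepa vs. Ref only Fabp5 was called among the 150 genes, and 36 were higher and 8 lower at an unadjusted p below 0.05, beside 9.72% and 11% of all probes. The lists were chosen with results of these mice known and are no independent evidence of a direction.

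Promoters of 7 of the 10 genes were matched by symbol in the RefSeq table (GRCm38.p6), from 250 bases before to 50 bases after the start, and Adgre1, Csf1r and Lyve1 were not matched. The letters GAGGAA, which occur in binding sites of PU.1, were searched on both strands, where the other strand reads TTCCTC. They were found in the promoters of Cd68 (2 matches), Mrc1 (3) and F13a1 (2), or 3 of the 7, and in 28.3% of the 27025 genes in the table. Of those 3 genes Cd68 and Mrc1 were called higher in HFoleic vs. Ref and F13a1 was not, and of the 4 without a match Lyz2 and Folr2 were called higher. The promoters of 2 genes that were higher and hold the letters, and of 2 genes that were not higher and do not, are shown for comparison, with each match in capitals. They lie at chr11:69666121-69666420 (minus strand) for Cd68, chr2:14229164-14229463 (plus) for Mrc1, chr6:124304401-124304700 (plus) for Cd163 and chr11:46810549-46810848 (plus) for Timd4.
Cd68 promoter: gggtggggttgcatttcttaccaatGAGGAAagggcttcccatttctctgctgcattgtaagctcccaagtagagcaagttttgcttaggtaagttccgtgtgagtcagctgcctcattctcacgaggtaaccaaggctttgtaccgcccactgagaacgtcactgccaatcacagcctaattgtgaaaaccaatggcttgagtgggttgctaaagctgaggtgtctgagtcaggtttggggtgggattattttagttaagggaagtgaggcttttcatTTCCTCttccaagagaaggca
Mrc1 promoter: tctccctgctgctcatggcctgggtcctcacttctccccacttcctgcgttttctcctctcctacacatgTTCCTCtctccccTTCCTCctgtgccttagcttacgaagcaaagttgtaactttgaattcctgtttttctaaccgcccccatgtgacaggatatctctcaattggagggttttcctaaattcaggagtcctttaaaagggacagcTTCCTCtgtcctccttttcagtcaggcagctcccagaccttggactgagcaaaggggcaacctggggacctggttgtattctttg
Cd163 promoter: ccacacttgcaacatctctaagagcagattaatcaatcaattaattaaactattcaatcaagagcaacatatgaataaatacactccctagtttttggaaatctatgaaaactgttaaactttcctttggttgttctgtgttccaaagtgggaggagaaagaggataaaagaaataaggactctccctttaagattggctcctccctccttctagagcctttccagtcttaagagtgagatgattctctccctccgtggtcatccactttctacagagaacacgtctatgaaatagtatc
Timd4 promoter: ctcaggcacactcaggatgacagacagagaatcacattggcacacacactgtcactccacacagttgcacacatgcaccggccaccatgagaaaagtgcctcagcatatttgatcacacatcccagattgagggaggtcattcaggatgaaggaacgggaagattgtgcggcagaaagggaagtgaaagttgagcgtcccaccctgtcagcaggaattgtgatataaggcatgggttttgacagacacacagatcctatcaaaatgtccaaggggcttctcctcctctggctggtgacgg

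In Cd68 the match nearest the start begins at base 30 of the transcript, and in Mrc1 it begins 35 bases before the start. TGCTGA, a part of the site of MAF factors, was found on either strand in the promoters of Lyz2, Timd4 and Folr2 (3 of 7) and in 19.1% of all genes. The E-box CANNTG was found in all 7 promoters and in 72.1% of all genes, and TATAAA in 0 of the 7 and in 14.2% of all genes. No match printed in capitals overlaps a match of the other motifs, and a match of letters is a description and not a binding site.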

How the data were processed

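RNA of visceral adipose tissue of 20 mice was labelled with Cy3 and read on 1-colour SurePrint G3 mouse arrays (Agilent). The authors extracted spot intensities with Agilent Feature Extraction 10.10.1.1, per the file headers, and the deposited median intensity of a spot is linear and not normalized. The authors also deposited log2 values, made from the median signal by filtering, whose rule is not given in the sources used here, and by quantile normalization. These served as an alternative.

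Left out were control spots and those with a mark for non-uniformity or as a population outlier. Probes well above background on at least 6 arrays were tested, which gave 39390. Their median intensities, not corrected for background, were log2 transformed and quantile normalized in R 4.3.3. The group means were fitted to all 20 arrays with limma 3.58.1 (lmFit, as in the methods of the study, and eBayes), and p was adjusted by Benjamini–Hochberg over all probes. The table of tested probes lacked 24 values, and no array was dropped or imputed. Differences from Adgre1 were fitted in the same way. The labels do not say whether the mice came from separate litters or cages, so that p measures the spread between these mice.

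Each gene is given by its probe of highest mean intensity, with other probes where they differ, and each list by its 2 genes of smallest p and others. A few genes are not reported here. The members and lists were chosen with earlier results of these data known. On simulated data 94%, 91.5% and 92.5% of 200 probes changed by log2 1 were recovered (HFoleic vs. Ref first, then HFepa vs. Ref, then HFepa vs. HFoleic) among 39366 probes. The probes were drawn at random, with normal noise that was independent between probes and of equal spread in all groups. Adgre1 had an SD of 0.28 in the Ref and 1.13 in the HFepa group, so that these shares do not hold for such genes. The number of mice limits the precision. Coordinates of probes are mm9, from the files, whose position in exons was not analysed here. Plots were drawn with matplotlib 3.10.9.

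Alternatives were the processed signal minus its 75th percentile, normexp correction of the mean signal (offset of 50), median centring, other filters, marked spots kept, array weights, blocks for slide or replicate number, robust eBayes with an intensity trend, the compared groups alone, averaging the probes of a gene, values within slides and each array left out. An ordinary t statistic for the differences from Adgre1 was added after seeing the data.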

Additional observations from a re-analysis of the deposited data

Results flagged for a closer look

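Within a group, 2 values lay far from the other mice, of 30 groups tested, where chance alone gives about 1 in 20. HFoleic mouse 6 had a Lyve1 log2 intensity of 8.48, and the nearest of the other HFoleic mice had 9.29. HFoleic mouse 4 had an F13a1 log2 intensity of 13.48, and the median of its group was 12.97. Without these mice the log2 fold changes of both genes in HFoleic vs. Ref kept their direction, and neither gene was called.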

How the results depend on the processing

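The count of members called in HFoleic vs. Ref was 6 to 8 under 13 other settings and 6 to 8 when each array was left out. Adgre1, Cd68, Csf1r, Lyz2, Mrc1 and Folr2 stayed called and higher in all of these. Array weights called 1 member in HFepa vs. Ref (Timd4, -0.61, adjusted p = 0.0378 from limma) and 5 in HFepa vs. HFoleic (Adgre1, Cd68, Csf1r, Lyz2 and Mrc1, all lower, where 11.6% of all probes were called), and they called Timd4 in HFoleic vs. Ref (adjusted p = 0.0131). Median centring called F13a1 in HFoleic vs. Ref (0.49, adjusted p = 0.0281 from limma). Leaving out single arrays gave 0 to 1 members in HFepa vs. Ref and 0 to 5 in HFepa vs. HFoleic. Of the differences from Adgre1, array weights called 6 in HFepa vs. Ref (65.3% of all probes) and 8 in HFepa vs. HFoleic (99.8%), median centring called 3 in HFepa vs. Ref (52.1%) and the processed signal called 2 in HFepa vs. HFoleic (89.5%). Single arrays left out gave 7 in HFoleic vs. Ref, 0 to 4 in HFepa vs. Ref (up to 86.8% of all probes, without HFepa mouse 8) and 1 to 7 in HFepa vs. HFoleic. An ordinary t statistic, chosen after seeing the data, called 8, 0 and 6. Cd68 minus Adgre1 turned to -0.0614 in HFoleic vs. Ref with array weights. The log2 fold change of Lyve1 in HFepa vs. HFoleic turned to 0.10 with array weights and ran from -0.20 to 0.13 with single arrays left out. The cause was not tested.

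Mice with the same replicate number were not more alike by the median: deviations of same-numbered mice in different groups had a median r of -0.08 over 16 pairs (-0.59 to 0.56, 5 above 0.1) and those of other mice 0.01 over 116 pairs. The labels do not say what the number stands for, and these values cannot decide whether it pairs mice. With the replicate number as a block 8, 0 and 0 members were called (20%, 0.0635% and 0% of all probes), F13a1 being the added one (0.56, adjusted p = 0.0346 from limma), and 5, 0 and 0 differences from Adgre1. Cd68 minus Adgre1 was then -0.0616 in HFepa vs. HFoleic.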
